A study of Caenorhabditis elegans with 43 samples.

Results

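The comparison described here is that of lin-41(xe11);let-7(n2853) double mutant worms with N2, the wild-type laboratory strain of Caenorhabditis elegans, at 28, 30 and 32 h of development. Its members were chosen by strain and hour in the labels: 3 double mutant libraries matched by hour to 3 N2 libraries, 6 of the 43 ribosome footprint libraries of the series. Ribosome profiling sequences the short mRNA fragments that ribosomes cover, so the level of a gene here is the number of footprints on it, given as CPM (counts scaled to a common library size). The study asked how the let-7 microRNA and the RNA-binding protein LIN41 regulate genes after transcription, by following synchronized whole worms from the second larval stage into the fourth (L4) and young adulthood. All animals were hatched without food, then fed and kept at 25 °C, and 1 population was harvested per strain and hour. The double mutant carries both alleles; the lin-41(xe11) strain, used below as the most similar comparison, carries the lin-41 allele alone; N2 carries neither. The stage of each hour is not in the labels, so the interval is called 28 to 32 h.

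let-7 is a microRNA that accumulates late in larval life and lowers the output of mRNAs whose 3′ untranslated regions pair with its seed. The allele n2853 changes a base of that seed, and xe11 changes the let-7 pairing sites of the lin-41 mRNA. LIN41, the main let-7 target, is a TRIM-NHL protein that binds mRNAs and represses lin-29, mab-10, mab-3 and dmd-3. LIN-29 with its cofactor MAB-10 drives the larval-to-adult switch of the skin, in which seam cells stop dividing and adult cuticle collagens are made. These sentences are background and not results of these libraries.

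The double mutant libraries held 7443975 to 10770843 gene counts and the N2 libraries 7638124 to 8990374. Of 20182 genes in the table, 13213 passed the filter of at least 1 CPM in at least 3 of the 21 libraries fitted and were tested. Each strain has 1 library per hour, so the hours stand in for replicates. In the main fit a term per hour removes the changes over time that the strains share. The p-values then measure how far strain differences vary from hour to hour. Differences between populations and libraries and counting error are part of that variation and cannot be separated from it. The spread between replicate populations of the same hour was not measured. That variation was pooled over the 21 libraries fitted, which include lin-41(xe11) and earlier hours. No 2 of the 9 libraries of both mutants and N2 at 28 to 32 h held identical values. The age of each double mutant library, estimated by its correlation with the N2 course, was 27.7 h for the 28 h library, 30.4 h for the 30 h library and 32 h for the 32 h library. The estimate is rough: with its own library left out of the course, N2 was placed within 1 h of its label at 20 to 36 h, except at 26 h, which was placed at 19 h. In whole worms, fewer cells of a type and fewer footprints per cell cannot be told apart, nor can a change in mRNA level and a change in translation.

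Few genes were called between the strains. At an adjusted p under 0.05 (edgeR quasi-likelihood test with hour as a term, Benjamini-Hochberg over all genes tested), 8 of 13213 genes were called, which is 0.0605%. Of these, 2 were higher in the double mutant (0.0151%) and 6 were lower (0.0454%). The higher genes were lin-41 and daf-12, and the lower ones were bli-1, col-175, vit-2, scrm-4, F59F4.3 and WBGene00000686. Without the hour term 3 genes were called, namely lin-41, scrm-4 and F59F4.3. The median log2 fold change over all genes tested was -0.01, with 6242 genes above 0 and 6971 below. An unadjusted p under 0.05 was reached by 632 genes (4.78%), the share beside which counts in the lists below stand. The libraries of the strains did not overlap for 732 genes (5.54%): all 3 of the double mutant lay above all 3 of N2 for 407 genes (3.08%) and below them for 325 genes (2.46%).

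**Figure D1:**
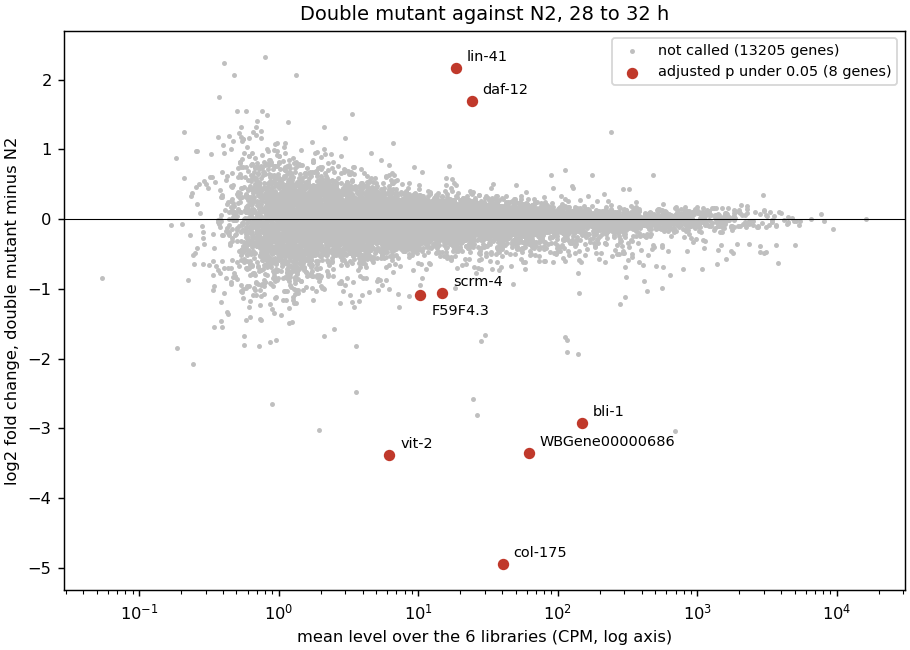
Each point is a gene tested, with its mean level over the 6 libraries in CPM on a log axis across and its log2 fold change, double mutant minus N2, upward. The 8 named genes passed the adjusted p threshold; lin-41 and daf-12 lie above 0 and the other 6 below.

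lin-41, the gene that carries the xe11 allele, had 33.6, 32.5 and 25.0 CPM in the double mutant at 28, 30 and 32 h, against 7.44, 6.44 and 6.43 CPM in N2. The groups were far apart, with means of 30.4 ± 4.69 CPM in the double mutant and 6.77 ± 0.579 CPM in N2 (SD, n = 3 each). lin-41 was 4.47-fold higher in the double mutant than in N2. The log2 fold change was 2.16 ± 0.11 (SE) with an adjusted p of 2.8e-07 by edgeR. At 18 to 24 h the levels were 60.8 to 72.6 CPM in the double mutant and 50.9 to 67.3 CPM in N2. Between these hours and 28 to 32 h the level dropped in both strains, and less so in the double mutant. The difference to N2 was larger at 28 to 32 h than at 18 to 24 h by 2.03 ± 0.14 on the log2 scale (edgeR interaction contrast, adjusted p = 8.69e-06). This call held in 16 of 18 alternatives and was lost with 26 h added to the window (1.57, adjusted p = 0.294) and with 34 h added (1.63, adjusted p = 0.154). At 34, 36 and 38 h the double mutant had 21, 29.4 and 45.6 CPM and N2 had 11.4, 20.3 and 45.7 CPM on the scaling of the whole course. The strains were thus at nearly the same level again at 38 h.

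daf-12 encodes the nuclear hormone receptor for dafachronic acids, the steroid signal that commits larvae to reproductive growth, and its mRNA is a known target of the let-7 family. It had 31.2, 38.5 and 41.2 CPM in the double mutant at 28, 30 and 32 h, against 13.5, 8.40 and 12.6 CPM in N2. Every double mutant library was above every N2 library, and the means were 37 ± 5.17 CPM in the double mutant and 11.5 ± 2.73 CPM in N2 (SD, n = 3 each). daf-12 was 3.22-fold higher in the double mutant than in N2. The log2 fold change was 1.69 ± 0.17 with an adjusted p of 0.000431 by edgeR. The 2 strains overlapped at 18 to 24 h, with 37.9 to 84.0 CPM in the double mutant and 41.1 to 81.8 CPM in N2. This change over time differed between the strains as well: the difference to N2 was larger by 1.65 ± 0.21 on the log2 scale at 28 to 32 h (edgeR, adjusted p = 0.0129). That call held in 11 of 18 alternatives, with differences of 1.34 to 1.89. It was lost without the hour term, with 26 h added, without the 30 h or 32 h libraries of all strains, without the 30 h or 32 h library of the double mutant and without the 32 h library of N2. daf-12 stayed apart afterwards, at 28.0, 23.2 and 27.9 CPM in the double mutant and 7.50, 6.85 and 5.56 CPM in N2 at 34, 36 and 38 h.

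hbl-1, a Hunchback-family transcription factor that delays later larval fates and another let-7 family target, missed the threshold. Its levels were low: 7.40, 5.13 and 8.29 CPM in the double mutant and 3.79, 3.11 and 4.69 CPM in N2. The groups did not overlap, and the log2 fold change was 0.84 ± 0.14 (95% interval 0.54 to 1.15) with an adjusted p of 0.051 by edgeR. It passed under 5 of 22 alternative settings.

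All 10 let-7 family candidate targets listed were measured. Of these, 2 were called higher than in N2 (lin-41 and daf-12) and none lower, against 0.0151% and 0.0454% of all genes tested. The 0.0151% consists of these same 2 genes, and the list was chosen with earlier results known, so the contrast is a description and not a test. The median log2 fold change of the 10 targets was 0.13, against -0.01 over all genes tested, with 8 above 0 and 2 below. The heterochronic repressor lin-14 had 11.1, 14.7 and 10.1 CPM in the double mutant and 11.2, 12.1 and 8.44 CPM in N2. lin-28, which blocks let-7 maturation, had 5.23, 8.10 and 10.1 CPM in the double mutant and 5.68, 7.36 and 6.30 CPM in N2. Both overlapped between the strains. So did let-60, the worm Ras gene, at 28.9, 29.7 and 30.7 CPM in the double mutant and 28.4, 26.5 and 29.7 CPM in N2. The molting regulators nhr-23 and nhr-25, the zinc-finger gene die-1 and the pharyngeal factor pha-4 had log2 fold changes between -0.08 and 0.07, each with an adjusted p of 0.999 by edgeR. The list of 10 heterochronic genes shares lin-41, daf-12, hbl-1, lin-14 and lin-28 with the targets. Of the 10, the same 2 genes, lin-41 and daf-12, were called higher and none lower, against the same shares of all genes tested.

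**Figure D2:**
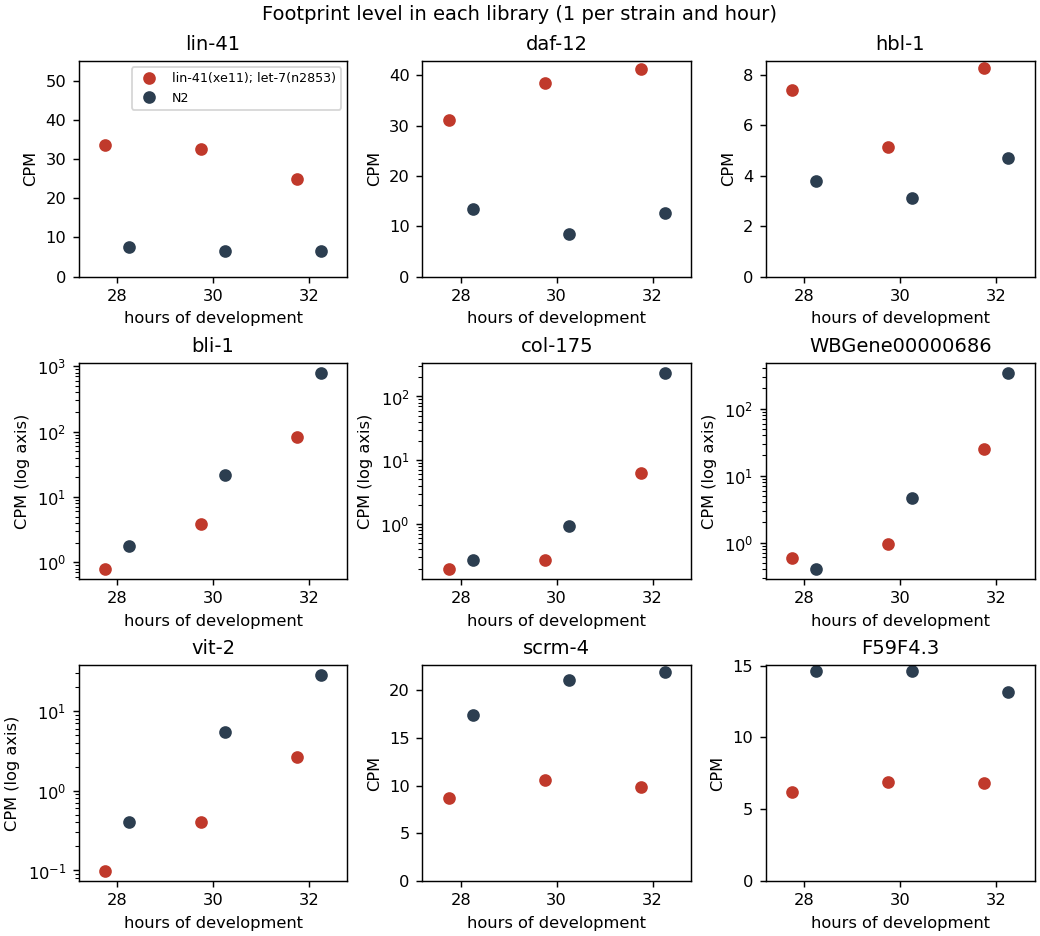
Footprint level in CPM (log axis for bli-1, col-175, WBGene00000686 and vit-2) in each double mutant and N2 library at 28, 30 and 32 h for the 8 called genes and hbl-1. lin-41, daf-12, scrm-4 and F59F4.3 are separated at every hour. bli-1, WBGene00000686 and vit-2 are further apart at 30 and 32 h than at 28 h, and col-175 is apart at 32 h.

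Of 12 measured members of the steroid hormone pathway list, daf-12 alone was called. An unadjusted p under 0.05 was reached by 4 of the 12, against 4.78% of all genes tested. daf-12 and daf-9 were higher without overlap, 2 of the 12, against 3.08% of all genes tested. In the list 6 members, daf-12 included, lay above 0 and 6 below, with a median of -0.01. daf-9, the cytochrome P450 that makes dafachronic acid, had 25.5, 27.4 and 30.4 CPM in the double mutant and 23.5, 23.8 and 17 CPM in N2. The double mutant libraries were all above those of N2, but the log2 fold change of 0.39 had an adjusted p of 0.953 by edgeR. The cholesterol transporter homolog ncr-1 had 49.6, 59.6 and 47.3 CPM in the double mutant and 59.8, 72.4 and 53.6 CPM in N2, with overlap. Of 12 Argonaute and other microRNA pathway genes 0 were called by edgeR, 0 had an unadjusted p under 0.05, and the median was -0.02. alg-1, the Argonaute that binds let-7, had 124, 118 and 146 CPM in the double mutant and 136, 118 and 146 CPM in N2.

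The 3 measured direct targets of LIN41 had log2 fold changes below 0, each with an unadjusted p under 0.05, and 0 were called by edgeR or DESeq2. lin-29, the zinc-finger gene of the adult switch, had 7.70, 7.56 and 7.33 CPM in the double mutant and 8.25, 13.7 and 19.8 CPM in N2. The double mutant stayed level over the 3 hours while N2 climbed, and the groups did not overlap. The log2 fold change of -0.85 ± 0.24 had an adjusted p of 0.725 by edgeR. mab-10, the NAB-type cofactor of LIN-29, had 0.888, 5.94 and 7.09 CPM in the double mutant and 2.84, 8.17 and 18.5 CPM in N2. It was lower than N2 at each hour, though the ranges overlapped (log2 fold change -1.07 ± 0.25, adjusted p = 0.316 by edgeR). mab-3, a DM-domain factor of male development, had 1.68, 2.97 and 1.20 CPM in the double mutant and 1.76, 4.95 and 8.17 CPM in N2 (log2 fold change -1.26 ± 0.34, adjusted p = 0.535 by edgeR). dmd-3, another DM-domain gene, failed the filter at 2, 3 and 4 counts in the double mutant and 0, 13 and 5 counts in N2. With 34 h added to the window, mab-10 and mab-3 were called, at adjusted p = 0.0231 and 0.0274; without the 32 h libraries the log2 fold changes were -0.81 for mab-10, -0.51 for lin-29 and -0.48 for mab-3.

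The 3 measured targets had a median log2 ratio, with 1 CPM added, of -0.09 at 28 h, -0.58 at 30 h and -1.32 at 32 h. All 3 were lower than N2 at each of these hours, though at 28 h lin-29 and mab-3 were nearly level with N2. The ratio of the double mutant to N2 at 28 h was 0.93 for lin-29 and 0.95 for mab-3. For mab-10 it rested on 9 counts in the double mutant and 21 in N2. lin-29 was at its highest in N2 at 34 h, with 22.3 CPM, against 10.8 CPM in the double mutant at that hour.

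**Figure D3:**
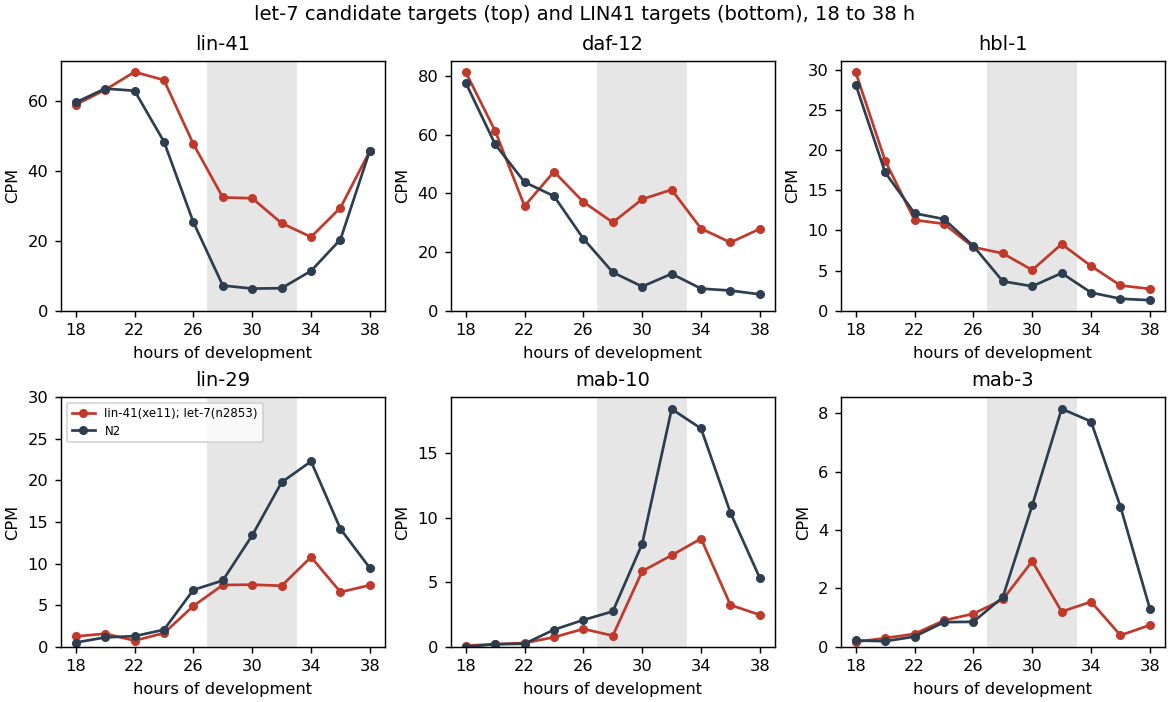
Footprint level in CPM against hours of development, 18 to 38 h, for 3 let-7 candidate targets and 3 LIN41 targets in the double mutant and N2, 1 library per point; the grey band marks 28 to 32 h. At 32 h lin-41 stands at 25.0 CPM in the double mutant and 6.41 CPM in N2, while the double mutant reaches lower levels of lin-29, mab-10 and mab-3 than N2.

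Among genes of the adult cuticle, bli-1 was lower in the double mutant than in N2. It encodes a collagen of the struts that join the layers of the adult cuticle. bli-1 had 0.790, 3.78 and 82.6 CPM in the double mutant at 28, 30 and 32 h, against 1.76, 22.0 and 791 CPM in N2. Levels climbed in both strains, 104.6-fold between 28 and 32 h in the double mutant and 450.1-fold in N2, and each double mutant library was below the N2 library of its hour. bli-1 was 7.61-fold lower than in N2 in the fit (log2 fold change -2.93 ± 0.31, adjusted p = 0.000656 by edgeR). By hour N2 was 2.23, 5.81 and 9.58 times as high. Later it had 324, 115 and 69.7 CPM in the double mutant and 2067, 1796 and 535 CPM in N2 at 34, 36 and 38 h.

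col-175, a cuticle collagen gene of the col family, began at the edge of detection in both strains. It had 2, 2 and 52 counts in the double mutant (0.197, 0.270 and 6.25 CPM) and 2, 8 and 1748 counts in N2 (0.271, 0.920 and 234 CPM). The difference sits at 32 h, where N2 was 37.5 times as high. The log2 fold change was -4.95 ± 0.43 with an adjusted p of 0.000431 by edgeR, but -2.81 with an adjusted p of 1 by DESeq2. At 34, 36 and 38 h col-175 had 101, 332 and 498 CPM in the double mutant and 1966, 2342 and 1969 CPM in N2.

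WBGene00000686, listed without a symbol, had 6, 7 and 210 counts in the double mutant (0.592, 0.945 and 25.2 CPM) and 3, 40 and 2548 counts in N2 (0.406, 4.60 and 341 CPM). The double mutant was slightly higher at 28 h and lower at 30 and 32 h. The log2 fold change was -3.35 ± 0.48 with an adjusted p of 0.0124 by edgeR, and -2.02 with an adjusted p of 1 by DESeq2.

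Of the 7 adult epidermal genes listed, all measured, bli-1 was called lower than in N2, 0 higher, and the other 6 missed the threshold. An unadjusted p under 0.05 was reached by 5, against 4.78% of all genes tested. All 7 log2 fold changes were below 0, with a median of -1.74, against -0.01 over all genes tested. The median of the list was -0.53 at 18 to 24 h, which is the value of bli-1 itself (± 0.72 SE, adjusted p = 0.934 by edgeR). bli-1 then had 0.0854 to 1.12 CPM in the double mutant and 0.198 to 1.64 CPM in N2, at the edge of detection. For lin-41(xe11) against N2 at 28 to 32 h the median of the list was -1.36. bli-2, a strut collagen like bli-1, had 24.3, 12 and 172 CPM in the double mutant and 27.7, 19.6 and 602 CPM in N2 (adjusted p = 0.643 by edgeR). col-38 had 44, 5.27 and 51.5 CPM in the double mutant and 32.9, 23 and 684 CPM in N2, and col-63 had 0.592, 0.810 and 16.6 CPM in the double mutant and 0.947, 0.805 and 130 CPM in N2. These genes overlapped between strains across the 3 hours and were apart at 32 h. By hour, the median log2 ratio of the list was -0.18 at 28 h, -0.86 at 30 h and -2.89 at 32 h, where all 7 were lower; at 28 h 5 were lower and 2 higher. Without the 32 h libraries the log2 fold changes were -0.45 for bli-2 and -0.61 for col-38.

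Among the genes with a col symbol, 124 of 156 were measured, col-175 was called lower than in N2 and none was called higher. The list was taken by symbol, so genes without one, WBGene00000686 among them, could not enter it. 102 of the 124 lay below 0 and 22 above, with a median log2 fold change of -0.35. The median was already -0.29 at 18 to 24 h. Non-overlapping lower levels were seen for 7 of the 124 (5.65%), against 2.46% of all genes. col-138 had 11.2, 4.32 and 101 CPM in the double mutant and 15.3, 16.2 and 549 CPM in N2, and col-71 had 14.4, 4.19 and 63.3 CPM in the double mutant and 14.3, 13.6 and 589 CPM in N2. Neither was called, and both showed the same order at 30 and 32 h as bli-1; without the 32 h libraries their log2 fold changes were -1.07 and -0.67, against -1.73 and -1.91 with them. Collagen genes are alike in sequence, and how footprints that match several genes were assigned is not given in the sources used here, so single members are uncertain to that extent.

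Among the other body-shape collagens, 0 were called. rol-1, which shapes the cuticle, had 1.38, 0.270 and 13.6 CPM in the double mutant and 0.947, 1.38 and 141 CPM in N2 (log2 fold change -2.80 ± 0.50, adjusted p = 0.0694 by edgeR). It was called under 5 of 22 alternative settings, and its log2 fold change was -0.43 without the 32 h libraries, -0.89 without that of the double mutant alone and -0.91 without that of N2 alone. sqt-1, another body-shape collagen, had 3258, 280 and 646 CPM in the double mutant and 2657, 777 and 825 CPM in N2; it was higher in the double mutant at 28 h and lower at 30 and 32 h. All 11 measured body-shape collagens lay below 0 (0 called, 1 with an unadjusted p under 0.05), with a median of -0.38 at 28 to 32 h and -0.53 at 18 to 24 h. At 30 h all 11 were lower, with a median log2 ratio of -1.32, while at 28 h 10 of 11 were higher. Of the furrow collagens, which form the circular grooves of the cuticle, 4 of 6 lay above 0, 0 were called or had an unadjusted p under 0.05, and the median was 0.01. dpy-7, a member of that group, had 199, 61.7 and 359 CPM in the double mutant and 211, 68.6 and 320 CPM in N2.

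Among other genes of the molting cycle, mlt-10, a secreted protein needed for molting, had 841, 56.9 and 105 CPM in the double mutant and 713, 189 and 133 CPM in N2. bed-3, a zinc-finger regulator of molting, had 59.4, 6.21 and 6.13 CPM in the double mutant and 47.5, 17.5 and 5.09 CPM in N2. Both were higher in the double mutant at 28 h and lower at 30 h. Among 21 molting and apical matrix genes and 11 molting clock regulators, 0 were called and 0 had an unadjusted p under 0.05; their medians were -0.09 and 0.03. Of 46 hedgehog-related genes, secreted proteins of the worm skin, 40 lay below 0, 0 were called, 3 had an unadjusted p under 0.05 and the median was -0.36, against -0.44 at 18 to 24 h. The astacin proteases, some of which open the old cuticle, had a median of -0.27 over 26 genes with 0 called and 0 at an unadjusted p under 0.05. When N2 was interpolated to the estimated ages (limma with 1 CPM added, on the 3 matched differences), lin-41 was called with a log2 difference of 1.92. daf-12 then had 1.54 (adjusted p = 0.343), bli-1 -2.38 and col-175 -2.36 (adjusted p = 0.835 each). That fit differs from the main one in more than the ages: on the 6 libraries matched by labelled hour daf-12 and bli-1 were not called either (edgeR, adjusted p = 0.205 and 0.191), and limma on the authors' log2 table gave -1.97 for col-175.

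**Figure D4:**
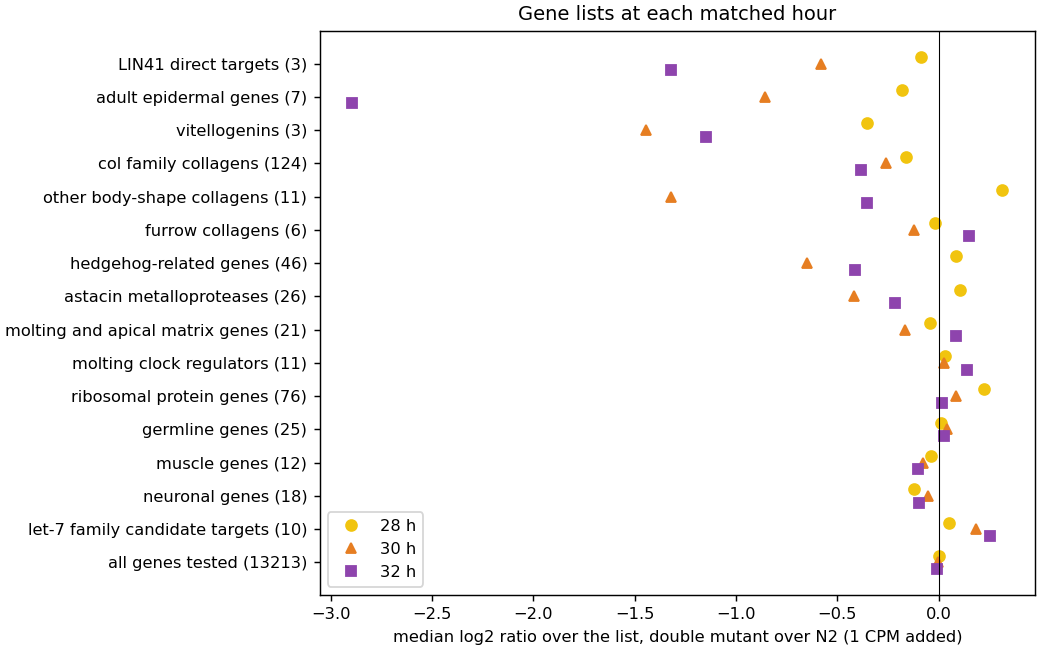
Median log2 ratio, double mutant over N2 with 1 CPM added, of each gene list (number of genes tested in brackets) at 28, 30 and 32 h. The adult epidermal genes lie at -0.18, -0.86 and -2.89, while the other body-shape collagens lie lowest at 30 h, at -1.32.

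The adult intestine expresses yolk protein genes for the oocytes. Of the 3 measured, vit-2 was called lower than in N2 and the other 2 missed the threshold. vit-2 had 1, 3 and 22 counts in the double mutant (0.0987, 0.405 and 2.64 CPM), against 3, 48 and 211 counts in N2 (0.406, 5.52 and 28.3 CPM). It was lower at each hour, with an overlap between the 32 h double mutant and the 28 h N2 library, and the counts at 28 h were too few to tell the strains apart. vit-2 was 10.5-fold lower than in N2 in the fit (log2 fold change -3.39 ± 0.32, adjusted p = 0.00122 by edgeR). At 34, 36 and 38 h it had 8.98, 154 and 727 CPM in the double mutant and 142, 803 and 4024 CPM in N2. vit-1 had 2.47, 12.6 and 42.5 CPM in the double mutant and 3.79, 21.5 and 74.0 CPM in N2, lower at each hour and uncalled (log2 fold change -0.77 ± 0.13, adjusted p = 0.0619 by edgeR). vit-6 had 0, 0 and 0.721 CPM in the double mutant and 0.135, 1.73 and 2.81 CPM in N2. vit-3, vit-4 and vit-5 failed the filter with 0 or 1 count in each library. Yolk protein genes are close copies of each other, so the split between vit-1 and vit-2 is uncertain.

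A pair of genes was lower in the double mutant at every hour and also at 18 to 24 h, where 5 of 13213 genes (0.0378%) were called. scrm-4, of the phospholipid scramblase family, had 8.69, 10.5 and 9.85 CPM in the double mutant and 17.4, 21.1 and 22.0 CPM in N2. The libraries did not overlap, and scrm-4 was 2.08-fold lower than in N2 (log2 fold change -1.06 ± 0.13, adjusted p = 0.00218 by edgeR). At 18 to 24 h it had 4.86 to 7.66 CPM in the double mutant and 9.91 to 11.7 CPM in N2 (log2 fold change -0.85 ± 0.12, adjusted p = 0.0188 by edgeR). The 2 differences could not be told apart: their own difference was -0.21 ± 0.18 with an adjusted p of 1.

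F59F4.3 had 6.22, 6.89 and 6.85 CPM in the double mutant and 14.6, 14.6 and 13.1 CPM in N2, again without overlap. It was 2.12-fold lower than in N2 (log2 fold change -1.09 ± 0.17, adjusted p = 0.0362 by edgeR). At 18 to 24 h it had 6.80 to 10.8 CPM in the double mutant and 14.7 to 19 CPM in N2 (log2 fold change -1.04 ± 0.14, adjusted p = 0.0188 by edgeR). Without the 32 h libraries of all strains, or without that of the double mutant or N2 alone, lin-41 and daf-12 were the 2 genes called. bli-1, scrm-4, F59F4.3 and WBGene00000686 then missed the threshold and vit-2 and col-175 missed it or failed the filter; without 32 h the log2 fold changes were -1.01 for scrm-4, -1.16 for F59F4.3, -1.48 for WBGene00000686 and -2.20 for bli-1. F59F4.3 was lost when any 1 of the 6 libraries was left out. Without the 30 h libraries 4 genes were called, with scrm-4 and vit-2 at an adjusted p of 0.0515 and WBGene00000686 at 0.0596. Without the 28 h libraries 12 were called, and without that of N2 alone 15.

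Summed levels of 25 germline genes were 1523 to 1984 CPM in the double mutant and 1510 to 1945 CPM in N2, with a median log2 fold change of 0.01. Those of 8 measured oocyte and eggshell genes were 19.1 to 23.1 CPM in the double mutant and 15.3 to 26.3 CPM in N2. Summed levels of 13 spermatogenesis genes were 14.8 to 247 CPM in the double mutant and 20.3 to 263 CPM in N2. These germ line lists overlapped between the strains and held 0 called genes. The 11 measured seam cell genes summed to 93.0 to 142 CPM in the double mutant and 103 to 132 CPM in N2, and the 20 vulval genes to 344 to 358 CPM in the double mutant and 340 to 356 CPM in N2, with 10 members on each side of 0. In these tissue lists 0 genes were called, while 1 spermatogenesis and 1 vulval gene had an unadjusted p under 0.05.

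The 13 intestinal genes, among them elt-2, the master regulator of the gut, summed to 11823 to 14842 CPM in the double mutant and 11786 to 15429 CPM in N2. elt-2 itself had 22.7, 23.8 and 21.9 CPM in the double mutant and 21.4, 19.7 and 20.8 CPM in N2. The 12 muscle genes summed to 20581 to 23030 CPM in the double mutant and 22418 to 25070 CPM in N2, with 10 of 12 below 0 and a median of -0.08. Of 18 neuronal genes 15 lay below 0, with a median of -0.09 and 3 at an unadjusted p under 0.05; unc-46, needed to load GABA transporters onto synaptic vesicles, had 1.88, 1.89 and 2.28 CPM in the double mutant and 4.73, 4.37 and 2.68 CPM in N2 (adjusted p = 0.316 by edgeR). Pharyngeal genes had a median of -0.14, with 9 of 12 below 0. Of the gut, muscle, neuron and pharynx lists 0 genes were called; 1 pharyngeal gene and 0 gut or muscle genes had an unadjusted p under 0.05.

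The lin-41(xe11) strain differs from the double mutant by the let-7 allele. Between them 4 genes of 13213 (0.0303%) were called: daf-12 was higher in the double mutant, and scrm-4, vit-1 and pgp-5 were lower. daf-12 had 31.2, 38.5 and 41.2 CPM in the double mutant and 12, 12.8 and 9.81 CPM in lin-41(xe11), a log2 fold change of 1.67 ± 0.17 (adjusted p = 0.00155 by edgeR). scrm-4 had 8.69, 10.5 and 9.85 CPM in the double mutant and 18.8, 19.4 and 23.8 CPM in lin-41(xe11), a log2 fold change of -1.09 ± 0.13 (adjusted p = 0.00334 by edgeR). vit-1 had 2.47, 12.6 and 42.5 CPM in the double mutant and 4.84, 25.7 and 98.7 CPM in lin-41(xe11), with a log2 fold change of -1.11 ± 0.13 (adjusted p = 0.00334 by edgeR).

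pgp-5, a P-glycoprotein of the ABC transporter family, had 1.28, 7.56 and 6.37 CPM in the double mutant and 14.3, 35.9 and 18.4 CPM in lin-41(xe11) (log2 fold change -2.23 ± 0.34, adjusted p = 0.0496 by edgeR). N2 had 3.92, 3.80 and 4.96 CPM of pgp-5, within the range of the double mutant. Without the 32 h libraries of all strains 0 genes were called between the mutants by edgeR, and 442 had an unadjusted p under 0.05. Without the 32 h library of the double mutant or of lin-41(xe11) alone, 1 gene, daf-12, was called, as without the 30 h libraries; without the 28 h libraries 2 were, daf-12 and vit-1. The call of pgp-5 held in 6 of 20 alternatives and was lost when any 1 library of the mutants was left out.

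lin-41 itself was not called between the mutants: 33.6, 32.5 and 25.0 CPM in the double mutant and 38.8, 40.3 and 34.7 CPM in lin-41(xe11), a log2 fold change of -0.33 ± 0.10 (adjusted p = 0.796 by edgeR). Every double mutant library was below every lin-41(xe11) library. Both mutants were compared with the same N2 libraries, so their differences to N2 share that error and are given side by side. As log2 fold changes to N2, the double mutant had 2.16 for lin-41, -2.93 for bli-1, -4.95 for col-175 and -0.85 for lin-29, and lin-41(xe11) had 2.49, -2.15, -3.47 and -0.80 for the same genes. For daf-12 the double mutant had 1.69 and lin-41(xe11) 0.02, and for vit-2 the double mutant had -3.39 and lin-41(xe11) -0.92. For vit-2 the difference between the mutants, -2.47 ± 0.35, had an adjusted p of 0.0514 by edgeR. Against N2, lin-41(xe11) had 6 called genes (0.0454%), among them lin-41, bli-1 and col-175.

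**Figure D5:**
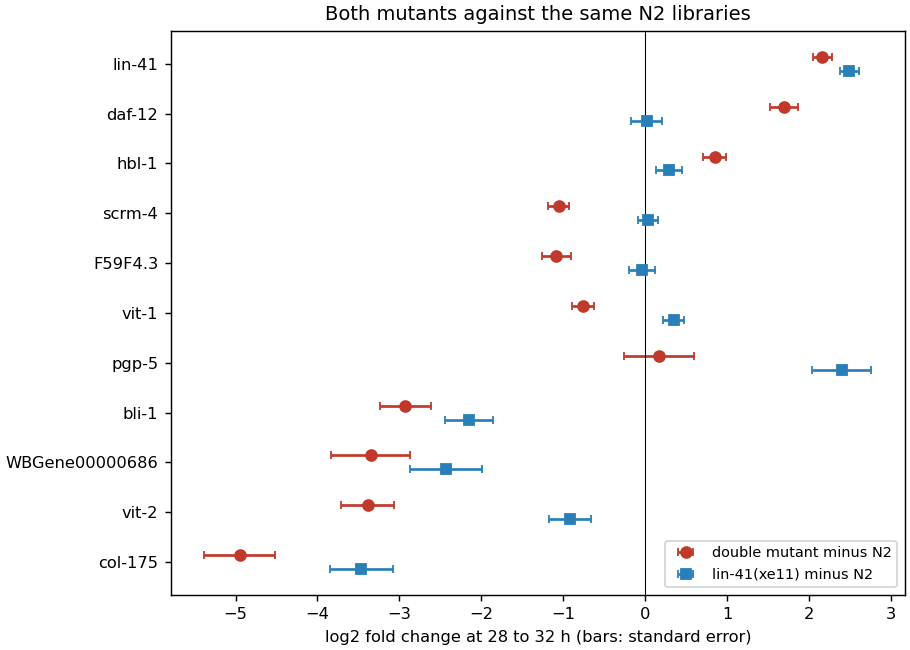
Log2 fold changes to the same N2 libraries at 28 to 32 h with their standard errors, for the double mutant (circles) and lin-41(xe11) (squares). lin-41, bli-1 and col-175 lie on the same side of 0 in both mutants, while daf-12 lies at 1.69 for the double mutant and at 0.02 for lin-41(xe11).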

How the data were processed

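The authors deposited raw footprint counts per gene for 43 libraries, mapped with Bowtie per the submitters' processing notes, and a table of log2 values that equal log2 of counts scaled to a common total within each time course with 8 added; this was tested on the files (scaled total 12019637 in the second course). The genome build and the treatment of multiply matching footprints are not given in the sources used here. Monosomes came from size-exclusion chromatography in the course used here, and from sucrose gradients in the let-7(n2853) course, per the labels' protocols; that strain was not used here.

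Counts were fitted with edgeR 4.0.16 (R 4.3.3; TMM scaling, quasi-likelihood test) over 21 libraries, 3 strains at 18, 20, 22, 24, 28, 30 and 32 h, with a term per hour and per mutant strain and window, leaving 10 residual degrees of freedom. Genes reaching 1 CPM in 3 or more libraries were tested, adjusted by Benjamini-Hochberg at 0.05. The hour in the labels pairs samples across strains: deviations from group means correlated at 0.867, 0.546 and 0.888 at 28, 30 and 32 h. Alternatives used limma 3.58.1 and DESeq2 1.42.0. On simulated counts for the main comparison, 97 of 100 genes changed 2-fold and 100 of 100 changed 4-fold were recovered, with 6 false calls among 13128 genes. The changed genes averaged at least 5 CPM and had the same fold at 28, 30 and 32 h. All other means were shared by the strains at each hour. Strain differences that vary from hour to hour were thus not simulated, so these rates need not hold for the real libraries.

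Named genes were lin-41, all let-7 candidate and LIN41 targets, every called gene, up to 4 members with the smallest p per list of 29 lists, and the 8 highest and 8 lowest uncalled non-overlapping genes of at least 10 CPM, and the genes called in the other comparisons. The comparison, its members and the lists were chosen with earlier results of these data known. Symbols came from the gene name table given with the files, in which 1404 of 20182 genes have none.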

Additional observations from a re-analysis of the deposited data

Results flagged for a closer look

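The difference between the double mutant and N2 was not the same at 28 to 32 h as at 18 to 24 h for 2 of 13213 genes (0.0151%; edgeR, 525 genes at an unadjusted p under 0.05). For lin-41 the log2 difference was larger at 28 to 32 h by 2.03, with 2.16 at 28 to 32 h and 0.13 at 18 to 24 h. For daf-12 it was larger by 1.65, with 1.69 at 28 to 32 h and 0.04 at 18 to 24 h. Both genes were higher in the double mutant in 3 of 3 hours at 28 to 32 h.

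Between the double mutant and lin-41(xe11), which share the lin-41 allele, 4 genes differed. daf-12 was higher in the double mutant by 1.67 on the log2 scale and scrm-4 had a log2 fold change of -1.09. vit-1 had a log2 fold change of -1.11 and pgp-5 of -2.23. Each of these genes kept its direction in 3 of 3 hours.

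In 4 of 18 groups of 4 libraries at 18 to 24 h, 1 library stood far from the other 3. Chance flags about 1 in 20 groups of like values, a rate that need not hold here, since the 4 libraries are of different hours. For col-175 the outcome was fixed by 3 libraries at 0. It had 0.0861 CPM in the double mutant at 24 h and 0 CPM in its other 3 libraries, and 0.0759 CPM in N2 at 18 h and 0 CPM in its other 3, a single count in each case. scrm-4 had 9.91 CPM in N2 at 22 h, below the other N2 libraries. F59F4.3 had 10.8 CPM in the double mutant at 18 h, above the other double mutant libraries.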

How the results depend on the processing

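The count of 8 genes called between the double mutant and N2 was 13 with DESeq2, 5 with limma on the authors' log2 table, 3 without the replicate block (no hour term), 16 with 26 h added, 41 with 34 h added, 2 on the 6 libraries alone, and 2 and 2 after matching by estimated age with 1 or 4 CPM added; leaving out hours or single libraries gave 2 to 15. The 2 genes whose difference changed with time became 1 without the replicate block, 0 with 26 h added (edgeR, 493 at an unadjusted p under 0.05) and 1 with 34 h added, and 1 to 2 without hours or libraries. The 4 genes called between the mutants became 13 with DESeq2, 7 with no filter, 7 at a minimum of 5 CPM, 2 without the replicate block, 7 with limma on the log2 table, 7 with 34 h added and 0 on the 6 libraries of these strains (edgeR, 525 at an unadjusted p under 0.05); leaving out hours or libraries gave 0 to 4. Causes were not tested. lin-41 was called in 22 of 22 alternatives (log2 fold change 1.59 to 2.25) and daf-12 in 18 of 22, missing without the hour term (adjusted p = 0.171), on the 6 libraries (0.205) and after age matching (0.343 and 0.295). scrm-4 was called in 15 of 22, bli-1 in 14 of 22, col-175 in 13 of 18, vit-2 in 12 of 21, WBGene00000686 in 12 of 22 and F59F4.3 in 10 of 22. No named gene that was called changed sign. The depth limits col-175 and vit-2 at 28 h, where 1 to 3 counts were read per library.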

Other observations

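Among genes that were not called, K08E7.6 was far apart between the strains at high levels; it and fmo-4 were chosen after their values were seen. K08E7.6 had 155, 183 and 121 CPM in the double mutant at 28, 30 and 32 h, against 920, 1560 and 1191 CPM in N2, without overlap (log2 fold change -3.04 ± 0.64, adjusted p = 0.181 by edgeR). At 18 to 24 h its mean was 373 CPM in the double mutant and 1021 CPM in N2. It was called on the 6 libraries alone, by DESeq2, with 26 h added and after matching by estimated age. fmo-4, a flavin-containing monooxygenase, had 253, 186 and 597 CPM in the double mutant and 202, 78.0 and 124 CPM in N2, higher at each hour with overlapping ranges (log2 fold change 1.25 ± 0.29, adjusted p = 0.284 by edgeR). sip-1, a small heat shock protein, had 94.6, 94.3 and 83.5 CPM in the double mutant and 137, 137 and 136 CPM in N2, without overlap (adjusted p = 0.328 by edgeR). mrpl-51, a mitochondrial ribosomal protein, had 49.1, 50.2 and 47.6 CPM in the double mutant and 62, 62.7 and 59.5 CPM in N2 (log2 fold change -0.33 ± 0.06, adjusted p = 0.0694 by edgeR). The potassium channel gene kvs-5 had 42.9, 40.9 and 39.4 CPM in the double mutant and 37.9, 33.2 and 27.1 CPM in N2, all higher in the double mutant (log2 fold change 0.33, adjusted p = 0.664 by edgeR).

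At 18 to 24 h, 5 genes (0.0378%) were called between the double mutant and N2 by edgeR, and all are named. Besides scrm-4 and F59F4.3, zig-2, an immunoglobulin-domain gene, was lower with a log2 fold change of -1.74 (adjusted p = 0.00178 by edgeR). mrpl-51 was lower with -0.36 and K09C6.9 higher with 0.89 (adjusted p = 0.0188 each by edgeR). At 28 to 32 h zig-2 had a log2 fold change of -1.01 and K09C6.9 of 0.76, and neither was called.

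In the lists not yet described, 0 genes were called. Ribosomal protein genes lay above 0 in 75 of 76 cases with a median of 0.11 (0.19 at 18 to 24 h), and 0 had an unadjusted p under 0.05. By hour their median log2 ratio was 0.22, 0.09 and 0.01 at 28, 30 and 32 h. Of 50 cytochromes P450, 28 lay above 0 (median 0.05, 6 at an unadjusted p under 0.05); cyp-13A2 had 106, 82.5 and 141 CPM in the double mutant and 71.8, 53.5 and 85.2 CPM in N2 (log2 fold change 0.64, adjusted p = 0.316 by edgeR). Of 22 insulin-like peptide genes, 10 lay above 0 (median -0.07, 5 at an unadjusted p under 0.05); ins-35 had 20.2, 15.1 and 28.8 CPM in the double mutant and 13.5, 10.8 and 20.8 CPM in N2 (log2 fold change 0.51, adjusted p = 0.266 by edgeR). ins-4 had 3.46, 7.02 and 17.4 CPM in the double mutant and 4.19, 3.45 and 4.15 CPM in N2, lower at 28 h and higher at 30 and 32 h. Of the nuclear hormone receptor genes with an nhr name, 90 lay above 0 and 85 below (median 0.01, 13 at an unadjusted p under 0.05). The 26 patched-related genes had a median of -0.05 and the 31 histone genes of -0.01, with 2 and 1 at an unadjusted p under 0.05.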
